A study of Mus musculus with 18 samples.

Results

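The genes described here build the core machinery that joins and divides mitochondria in mouse cells. They are 9 of the 17207 genes with a read in any library. They were chosen by name, as a group led by Mfn1, which was itself selected on its ribosome occupancy, because that value fell from 1 h to 18 h of treatment in each of 3 experiments. All values of Mfn1 are therefore given as a description with no test, and tests are given for the others. MIN6 cells, a mouse insulinoma line that makes insulin, were kept for 18 h with DMSO, the solvent (control), for 1 h with CPA at 200 µM (CPA1), or for 18 h with the same dose (CPA18). CPA, cyclopiazonic acid, blocks the pump that fills the endoplasmic reticulum (ER) with calcium and so sets off ER stress, acute at the early time and chronic at the late time. Poly(A)-enriched RNA was sequenced (mRNA-seq), and so were the RNA fragments protected by ribosomes (Ribo-seq), in 3 independent experiments, which gave 18 libraries of 1 cell line without any genetic change stated in the labels. The 1 h cells had no DMSO control of their own time.

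Mitochondria fuse in steps. Mfn1 and Mfn2, GTPases anchored in the outer membrane, tether and merge outer membranes, and Opa1, a dynamin-related GTPase of the inner membrane, merges inner membranes and shapes cristae. Oma1 is a stress-activated protease that cuts Opa1. For division the cytosolic GTPase Dnm1l (Drp1) is recruited to the surface, where it assembles into rings that constrict the organelle. Its docking proteins on the outer membrane include Mff, Mief1 (MiD51) and Mief2 (MiD49), and Fis1 is a further outer membrane protein of the fission pathway. In beta cells mitochondria couple glucose metabolism to insulin release, and their shape is known to affect that coupling.

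The coding stretch for the phosphate-binding loop of the GTPases Mfn1, Opa1 and Dnm1l is shown because it is a part that these proteins share and because short reads have to tell these genes apart. The sequences are the RefSeq transcripts on GRCm38.p6, in coding sense, with the last 3 codons of the loop (glycine, lysine, then serine or threonine) in capitals.
Mfn1: ggcaggacaagtagtGGCAAGAGC
Opa1: ggagatcagagtgctGGGAAAACC
Dnm1l: ggaacgcagagcagtGGGAAGAGC
These are codons 82 to 89 of Mfn1 (chr3:32534369-32538288, + strand), 313 to 320 of Opa1 (chr16:29608365-29608388, + strand) and 32 to 39 of Dnm1l (chr16:16346131-16358772, − strand). All are coding exon sequence, and those other than that of Opa1 run across an exon junction, so that their genomic span holds an intron. Over the 24 bases Mfn1 matched Dnm1l at 17 and Opa1 at 12. Mfn2 shared no stretch of 25 bases with another gene's transcript, so reads of that length separate it from Mfn1 along their whole length. In the Mfn1 transcript 53 of 4507 such stretches (1.18%) also occurred in transcripts of other genes, 293 in number, and reads from there cannot be assigned with certainty. Dnm1l, Mief1 and Mief2 had 0.41%, 0.42% and 0.4% of such stretches.

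Between 168129 and 1083297 reads were counted per Ribo-seq library and between 520960 and 4755030 per mRNA-seq library. The median Ribo-seq total was 929649 in control, 470602 at CPA1 and 203108 at CPA18, so footprints of late stress were sampled least. The shallowest mRNA-seq library was the control of experiment 1. For 2 control libraries of experiment 2 the title and the description name different assays, and the titles were followed. Of 8 ER stress genes, 7 rose in mRNA-seq and 8 in Ribo-seq at CPA18, among them Ddit3 by 4.45 and 6.11 on the log2 scale (adjusted p = 3.93e-22 and 8.37e-53 in edgeR's quasi-likelihood test). All 10 beta cell markers were detected, with Ins2 at a mean of 262900 RPKM in control mRNA-seq, and 9 of the 10 fell at CPA18 in each assay. The glucose transporter gene Slc2a2 changed by -3.28 in mRNA-seq and -2.99 in Ribo-seq on the log2 scale (adjusted p = 2.83e-12 and 1.91e-21 in edgeR). In bulk samples, a smaller share of cells that express a gene and less of its RNA per cell cannot be told apart. Of 13 markers of other pancreatic and stromal cells, 10 had reads, Prss2, Amy2b and Ptprc had none, and their summed level was 24.3 to 138 RPKM in mRNA-seq and 108 to 242 RPKM in Ribo-seq, most of it Gcg. In total, 7794 genes had at least 1 read in every library and were tested, 8 of the 9 members among them.

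In control cells the members spanned a wide range of levels. RPKM, a read count scaled to the library total and to transcript length, allows levels to be compared between genes. Fis1 was highest, with 180 ± 80.8 RPKM in mRNA-seq (SD, n = 3), above 95.5% of the genes tested. Mfn2 (17.3 ± 2.90), Mief2 (16.1 ± 14.4), Mff (7.40 ± 1.08) and Mief1 (5.53 ± 1.85) followed. The mRNA-seq levels of Mfn1 (1.81 ± 0.769 RPKM), Dnm1l (1.66 ± 1.46) and Opa1 (1.66 ± 1.07) were lowest among these, and the levels of Dnm1l and Opa1 were above only 10.8% and 10.7% of the genes tested. Neighbours in this order below Fis1 overlapped between experiments, except that all control values of Mief1 lay above all of Mfn1. Oma1 had 0 to 3 reads per library, with 11 reads over all mRNA-seq libraries and 6 over all Ribo-seq libraries. It was listed at 0 in 4 and 5 of the 9 libraries, did not enter the tests, and no change in it was detectable at this depth.

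**Figure D1:**
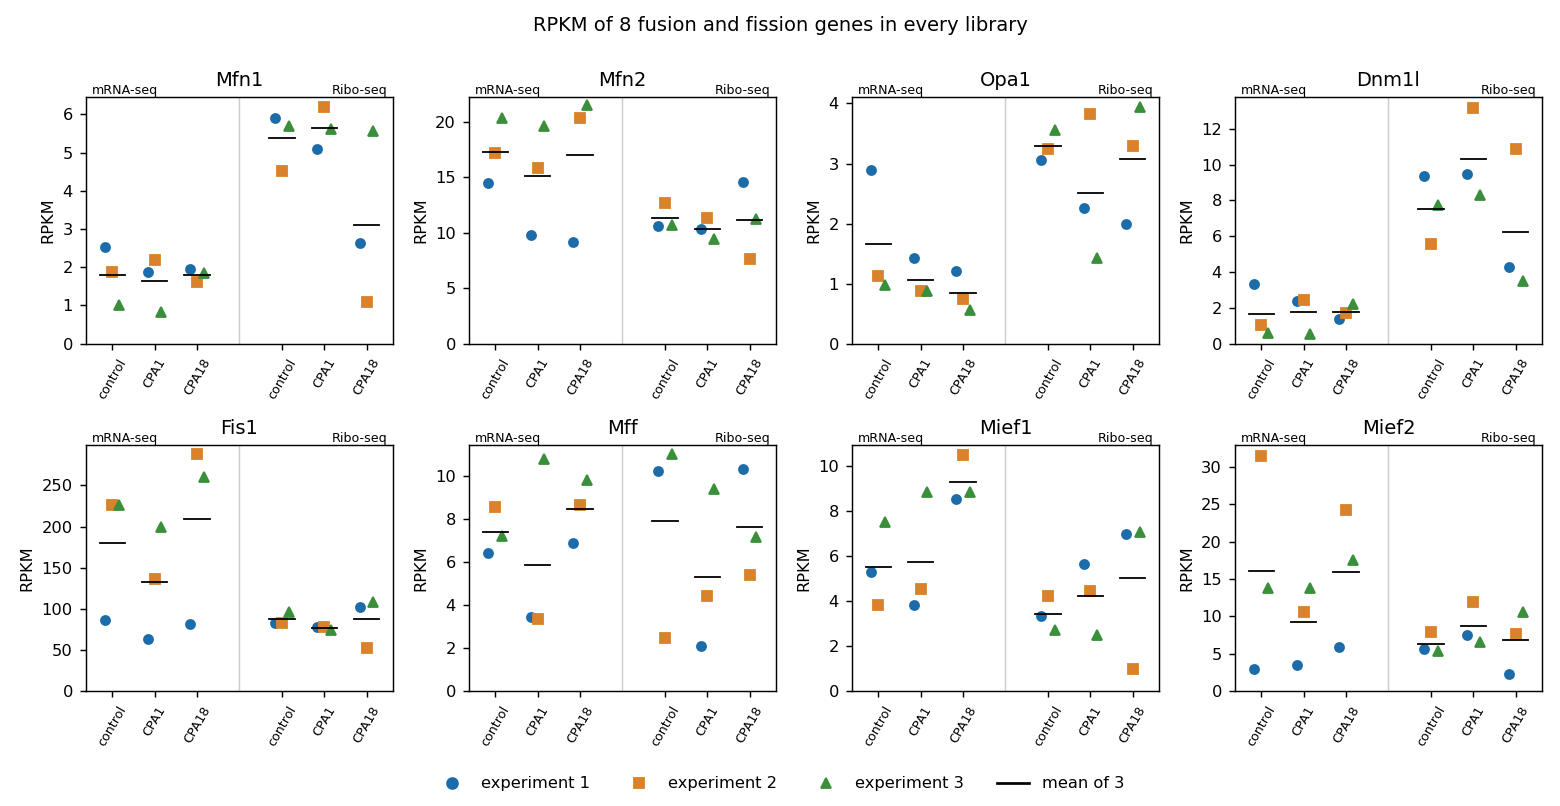
Levels of the 8 detected members in every library, in RPKM on a linear axis from 0 that differs between panels, with mRNA-seq to the left and Ribo-seq to the right of the grey line. Points are single libraries, coloured by experiment, and black lines are means of 3. The means of Mfn1, Opa1 and Dnm1l are higher in Ribo-seq than in mRNA-seq at each treatment, while the mRNA-seq points of Fis1 and Mief2 are spread by experiment.

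Footprints gave a flatter order. In control Ribo-seq, Fis1 stood at 87.4 ± 7.68 RPKM, Mfn2 at 11.3 ± 1.19, Mff at 7.90 ± 4.73, Dnm1l at 7.54 ± 1.89, Mief2 at 6.36 ± 1.41, Mfn1 at 5.38 ± 0.757, Mief1 at 3.43 ± 0.756 and Opa1 at 3.29 ± 0.253 (SD, n = 3). Mff overlapped most of the others. All control values of Dnm1l, Mief2 and Mfn1 lay below those of Mfn2 and above those of Mief1 and Opa1, and within these groups the values overlapped. Ribosome occupancy, the Ribo-seq RPKM divided by the mRNA-seq RPKM of the same experiment, had its highest control means in Dnm1l, Mfn1 and Opa1. It was 6.92 ± 5.13 for Dnm1l, 3.46 ± 1.90 for Mfn1 and 2.54 ± 1.34 for Opa1, and on the mean log2 scale these stood above 95.9%, 85.2% and 74.9% of the genes tested. It was 0.584 ± 0.326 for Fis1, 0.664 ± 0.120 for Mfn2, 0.701 ± 0.376 for Mief1, 0.850 ± 0.916 for Mief2 and 1.14 ± 0.736 for Mff, all below the median of the genes tested. Opa1 overlapped Mff, Mief1 and Mief2, since its value in experiment 1 was 1.055 beside highest values of 1.588, 1.105 and 1.904 for those. The mitofusins, which act at the same step, lay on opposite sides of that median, and Mfn2 had more RNA per length than Mfn1 in each control experiment, and less occupancy in each. Few mRNA reads stand under the 3 highest occupancies. Each control library held 6 to 7 for Dnm1l, 6 to 14 for Mfn1 and 9 to 14 for Opa1. Both RPKM values are scaled to whole transcripts, so occupancy compared between genes can also depend on the share that is coding. That share was 23.8% in Mief1 and 42.1% to 54.1% in the other members compared here. Its part in this order was not tested.

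The mRNA-seq values of several members followed the experiment more than the treatment, as did those of most genes tested. On the log2(RPKM + 0.5) scale, the range between experiment means was wider than that between treatment means for 7 of 9 members in mRNA-seq, against 62.8% of all genes tested, and for 7 of 9 in Ribo-seq, against 32.4%. The 9 include Oma1, which was not among the genes tested and counts as wider in Ribo-seq only. Mief2 had 2.99, 31.5 and 13.8 RPKM in the control mRNA-seq of experiments 1, 2 and 3, and Fis1 had 86.3, 227 and 226 RPKM. Experiment 1 was thus far below the others for both. These are the members richest in guanine and cytosine, with a GC content of 57.6% and 55.4%, while Dnm1l, at 41.5%, was highest in experiment 1 (3.33 RPKM against 1.05 and 0.610). Across 7786 genes, the control mRNA-seq difference of experiment 1 from the mean of experiments 2 and 3 had a Pearson r of -0.55 with GC content, a description across genes, which are not independent replicates. It was -0.50 at CPA1 and -0.52 at CPA18. In Ribo-seq the same r was -0.09 in control, -0.27 at CPA1 and -0.25 at CPA18, so there it differed between treatments. The part of base composition in the members' values was not tested.

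**Figure D2:**
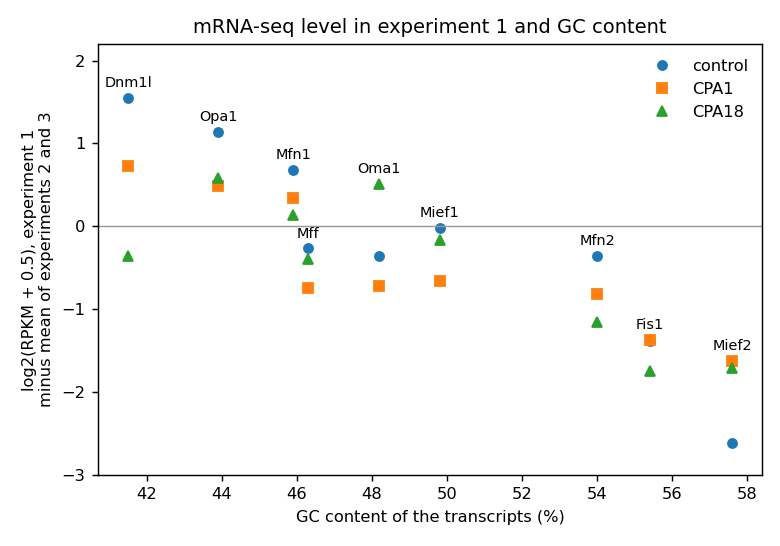
Difference in mRNA-seq level between experiment 1 and the mean of experiments 2 and 3 (log2(RPKM + 0.5), vertical axis) against the mean GC content of each member's transcripts (percent, horizontal axis), with 1 point per treatment. GC-rich Mfn2, Fis1 and Mief2 lie below 0 in each treatment, and Opa1 and Mfn1, which are poorer in GC, lie above 0. Dnm1l, the poorest in GC, lies above 0 in control and CPA1 and below it at CPA18, and Mff lies below 0 in each treatment.

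Mfn1 had fewer footprints late in stress in 2 of the 3 experiments, at mRNA levels within the range of the other treatments. In mRNA-seq, Mfn1 stood at 2.54, 1.88 and 1.01 RPKM in control (experiments 1, 2 and 3), at 1.88, 2.19 and 0.816 at CPA1 and at 1.95, 1.62 and 1.84 at CPA18. In Ribo-seq it stood at 5.91, 4.51 and 5.70 RPKM in control, at 5.10, 6.18 and 5.63 at CPA1 and at 2.63, 1.09 and 5.58 at CPA18. The mRNA-seq groups overlapped, and so did the Ribo-seq groups, since the CPA18 value of experiment 3 lay within the range of the other treatments. Occupancy was 2.33, 2.40 and 5.66 in control, 2.71, 2.83 and 6.90 at CPA1 and 1.34, 0.669 and 3.03 at CPA18. It was lowest at CPA18 within each experiment, and the groups overlapped because experiment 3 was high throughout. From CPA1 to CPA18 it changed by -1.01, -2.08 and -1.19 on the log2 scale, with a mean of -1.43 ± 0.573 (SD, n = 3), and from control to CPA18 by -0.79, -1.84 and -0.90, with a mean of -1.18 ± 0.578. From control to CPA1 it changed by 0.22, 0.24 and 0.29. The late fall is the value on which Mfn1 was selected, and the comparisons share samples.

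The 3 experiments reached the lower occupancy by different routes. In experiments 1 and 2 the footprint level changed by -0.96 and -2.51 on the log2 scale from CPA1 to CPA18 while the mRNA level changed by 0.05 and -0.43. In experiment 3 the footprint level changed by -0.01 and the mRNA level by 1.17. The counts behind these values were small. Mfn1 had 22, 19 and 28 footprints in control, 12, 11 and 12 at CPA1, and 2, 1 and 14 at CPA18. At the CPA1 level, the CPA18 libraries would have held 3.89, 5.69 and 14.1 footprints given their totals. The ratio of CPA18 to CPA1 footprint level was 0.515 in experiment 1 (95% exact binomial interval 0.0560 to 2.31), 0.176 in experiment 2 (0.00408 to 1.21) and 0.991 in experiment 3 (0.426 to 2.35). In mRNA-seq the change of experiment 3 rests on 7 reads at CPA1 and 15 at CPA18 (ratio 2.26, 0.866 to 6.54). These intervals cover counting error only. Fitted over all libraries, which gives deeper libraries more weight, the edgeR estimates for Mfn1 at CPA18 against CPA1 were 0.19 in mRNA-seq, -0.60 in Ribo-seq and -0.82 in occupancy.

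**Figure D3:**
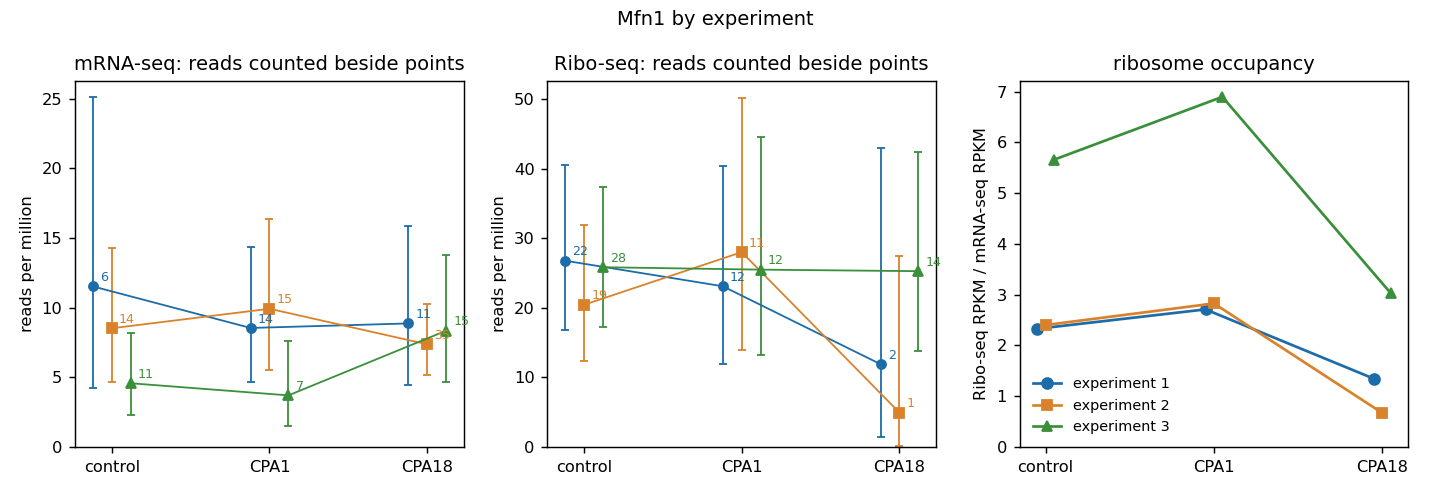
Mfn1 in each experiment: reads scaled to the library total (CPM) in mRNA-seq (left) and Ribo-seq (middle), with the number of reads beside each point and bars for the 95% exact Poisson interval of the count, and ribosome occupancy, the ratio of Ribo-seq to mRNA-seq RPKM (right). Lines join libraries of the same experiment. Occupancy is lowest at CPA18 in every experiment, with only 2 and 1 footprints behind the low values of experiments 1 and 2.

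The CPA18 Ribo-seq library of experiment 2, which holds the lowest Mfn1 footprint value, was also the lowest of the 9 Ribo-seq libraries for Mfn2, Fis1 and Mief1. It was the lowest for 4 of 8 members and for 13.1% of all genes tested. The 4 include Mfn1, whose value in this library is part of the fall on which it was selected. Mief1, like Mfn1, had 1 footprint there. Without experiment 2 the mean log2 change in Mfn1 occupancy was -1.10 against CPA1 and -0.85 against control. By the Pearson correlation of log2 occupancy, centred within each experiment, over 9 pairs of libraries, the genes most like Mfn1 among 4917 were H3f3b (0.97), Ift52 (0.97), Trabd (0.97), Osbpl2 (0.96) and Tbrg1 (0.96). The 4917 had a mean of at least 5 RPKM in both assays. Mfn1 itself was below that minimum, at 1.75 RPKM in mRNA-seq and 4.70 in Ribo-seq. Opa1, Dnm1l and Mief1 were below it in at least 1 assay. Among the members, Fis1 (0.68) and Mief1 (0.61) came nearest and Opa1 (-0.53) was farthest. In mRNA-seq, over 9 libraries on the log2(RPKM + 0.5) scale, the 5 most alike of 5170 genes were Ccnt2 (0.95), Dld (0.94), Nsd3 (0.91), Kbtbd2 (0.90) and Dnajb6 (0.90), and Dnm1l had 0.89. These values describe libraries that share experiment, depth and base composition.

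Mfn2, the other outer membrane mitofusin, did not pass the test in any comparison. Its footprints stood at 10.6, 12.7 and 10.7 RPKM in control, 10.3, 11.3 and 9.45 at CPA1 and 14.6, 7.66 and 11.3 at CPA18, and its mRNA at 14.5, 17.2 and 20.3, then 9.76, 15.9 and 19.6, then 9.12, 20.3 and 21.5 RPKM. The groups overlapped in both assays. At CPA18 against control its log2 change was -0.06 (SE 0.286) in mRNA-seq, -0.01 (SE 0.328) in Ribo-seq and 0.03 (SE 0.420) in occupancy (adjusted p = 0.887, 0.984 and 0.992 in edgeR's quasi-likelihood test).

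Relative levels need care at CPA18. The insulin transcripts, which hold a large share of the reads, fell, and with the total count as scale the median of the 7794 genes moved by 0.36 in mRNA-seq and 0.39 in Ribo-seq on the log2 scale at CPA18 against control. Scaled to totals without the insulin reads (Ins1, Ins2), the same medians were 0.17 in mRNA-seq and 0.18 in Ribo-seq. The source of the shift that remained was not tested. With TMM scaling, which assumes that most genes do not change, these medians were -0.08 and 0.03. Each member's call is therefore given below with its distance from the median gene.

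Opa1, the inner membrane fusion GTPase, had its lowest mRNA level at CPA18 in each experiment. Its mRNA-seq level was 2.90, 1.12 and 0.971 RPKM in control, 1.43, 0.885 and 0.882 at CPA1 and 1.21, 0.740 and 0.559 at CPA18, lower at CPA18 than in control in each of 3 experiments, with overlapping groups. Its log2 change at CPA18 against control was -0.83 (SE 0.487, adjusted p = 0.182 in edgeR's quasi-likelihood test), 1.19 below the median gene. With TMM scaling it passed the threshold, at -1.24 (adjusted p = 0.0268 in edgeR), and it is the one member whose call at CPA18 was gained by a scaling in mRNA-seq. Opa1 footprints did not follow: at 3.06, 3.25 and 3.56 RPKM in control and 1.99, 3.30 and 3.94 at CPA18, they changed by 0.02 (SE 0.460, adjusted p = 0.982 in edgeR). Occupancy of Opa1 was higher at CPA18 than in control in each experiment, by 0.64, 0.62 and 0.94 on the log2 scale, the direction opposite to Mfn1, but the interaction test gave 0.83 (SE 0.636, adjusted p = 0.741 in edgeR). Between 6 and 21 mRNA reads and between 2 and 23 footprints per library stand behind these values.

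Dnm1l, the fission GTPase, differed between experiments in direction. Its mRNA-seq level was 3.33, 1.05 and 0.610 RPKM in control, 2.37, 2.41 and 0.523 at CPA1 and 1.40, 1.70 and 2.19 at CPA18, so it was lower at CPA18 than in control in experiment 1 and higher in the others. Footprints were at 9.33, 5.57 and 7.72 RPKM in control, 9.49, 13.1 and 8.28 at CPA1 and 4.30, 10.9 and 3.52 at CPA18. From CPA1 to CPA18 they were lower in each experiment, by 1.14, 0.27 and 1.23 on the log2 scale, and the fitted change was -0.82 (SE 0.438, adjusted p = 0.170 in edgeR), 1.13 below the median gene. With TMM scaling this change passed the threshold, at -1.13 (adjusted p = 0.0458 in edgeR). Occupancy at CPA18 against CPA1 changed by -0.39, 0.23 and -3.29, and did not pass the test (-0.95, SE 0.665, adjusted p = 0.900 in edgeR). RefSeq lists 8 Dnm1l transcripts of 612 to 755 codons, and no one of them had a read in all 18 libraries, so their values were used only as a sum.

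With library totals as scale, calls were made for Mief1 and Fis1 only, both in mRNA-seq, and the docking proteins Mff and Mief2 had none. With 33.6% of all genes tested called in mRNA-seq at CPA18 against control, 1 of the 7 members tested was called, Mief1. Against CPA1, with 37.5% of all genes called, 2 of 7 were called, Mief1 and Fis1. The members' share was no higher than that of all genes in either comparison. The median log2 change over the 7 was 0.19 against control and 0.57 against CPA1, beside 0.36 and 0.48 for all genes.

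Mief1 anchors Dnm1l to the outer membrane. Its mRNA-seq level was 5.28, 3.82 and 7.49 RPKM in control, 3.83, 4.52 and 8.84 at CPA1 and 8.52, 10.5 and 8.83 at CPA18. All 3 CPA18 values lay above all 3 control values, and the CPA1 value of experiment 3 reached into their range. Mief1 mRNA rose by 0.84 (SE 0.321) on the log2 scale against control, 0.48 above the median gene, and by 0.79 (SE 0.309) against CPA1, 0.31 above it (adjusted p = 0.0332 and 0.0352 in edgeR's quasi-likelihood test). Against control it was higher in 3 of 3 experiments, and against CPA1 in 2 of 3. Without the experiment as a block the adjusted p was 0.380 and 0.368, and with TMM scaling 0.308 and 0.510 (edgeR). Leaving out 1 experiment gave 0.48 (without experiment 2) to 1.13 (without experiment 3) against control, with an adjusted p of 0.0587 to 0.400, and 0.52 to 1.19 against CPA1, with an adjusted p of 0.0343 to 0.329 (edgeR). Mief1 footprints numbered 14, 20 and 15 in control, 15, 9 and 6 at CPA1 and 6, 1 and 20 at CPA18, which gave 6.97, 0.985 and 7.07 RPKM at CPA18 beside 3.35, 4.22 and 2.72 in control. Thus they were higher in experiments 1 and 3 and lower in experiment 2, and the change of 0.73 (SE 0.442) did not pass (adjusted p = 0.210 in edgeR).

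Each of the 3 Mief1 transcripts carries a reading frame ahead of the main one, of 70 codons in both transcripts that encode 463 residues and of up to 137 codons in the one that encodes 285. It ends before the main start in all of them, and upstream frames of Mief1 are known to be translated. The counts cover whole transcripts, of which the main frame makes up 23.8%, so footprints on the upstream frame and on the main frame cannot be told apart. The main frame made up 42.1% to 83.9% of the transcripts in the other members.

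Fis1 rose between the early and the late time. Its mRNA-seq level was 63.3, 136 and 200 RPKM at CPA1 and 81.4, 288 and 260 at CPA18, higher at CPA18 in each of 3 experiments, by 0.36, 1.08 and 0.38 on the log2 scale. The groups overlapped because the experiments differ. The fitted change was 0.61 (SE 0.255, adjusted p = 0.0473 in edgeR's quasi-likelihood test), 0.14 above the median gene. Without the block the adjusted p was 0.492, with TMM scaling the change was 0.08 (adjusted p = 0.699), and without experiments 1, 2 or 3 it was 0.72, 0.38 or 0.74 (adjusted p = 0.0815, 0.299 and 0.161, all in edgeR). Against control it did not pass, at 0.19 (SE 0.256, adjusted p = 0.595 in edgeR), since control cells had 86.3, 227 and 226 RPKM. Fis1 footprints stood at 82.7, 83.2 and 96.2 RPKM in control, 77.7, 77.8 and 73.8 at CPA1 and 102, 52.0 and 109 at CPA18. At CPA18 they were above control in experiments 1 and 3 and below it in experiment 2, where 9 reads were counted. The fitted change at CPA18 against control was 0.03 (SE 0.282, adjusted p = 0.947 in edgeR).

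The promoters of Mief1 and Fis1, whose mRNA passed the test with library totals as scale, are shown. Of the alternatives that tested them, 0 of 10 kept the Mief1 call against control and 1 of 10 that against CPA1. The Fis1 call was kept by 1 of 11. Any role of these promoters was not tested. They are RefSeq sequences on GRCm38.p6, from 250 bases before to 50 bases after the start, given in the direction of transcription, with the CCAAT box (CCAAT on either strand) in capitals. Of the 2 starts of Fis1, the one shared by 2 of its 3 transcripts is shown.
Mief1, chr15:80233830-80234129, + strand: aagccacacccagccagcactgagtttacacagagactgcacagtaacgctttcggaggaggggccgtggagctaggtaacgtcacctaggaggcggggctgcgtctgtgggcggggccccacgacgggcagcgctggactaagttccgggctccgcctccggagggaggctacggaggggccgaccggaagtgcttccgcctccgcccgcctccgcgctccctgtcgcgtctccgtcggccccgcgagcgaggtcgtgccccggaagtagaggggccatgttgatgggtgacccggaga
Fis1, chr5:136953025-136953324, + strand: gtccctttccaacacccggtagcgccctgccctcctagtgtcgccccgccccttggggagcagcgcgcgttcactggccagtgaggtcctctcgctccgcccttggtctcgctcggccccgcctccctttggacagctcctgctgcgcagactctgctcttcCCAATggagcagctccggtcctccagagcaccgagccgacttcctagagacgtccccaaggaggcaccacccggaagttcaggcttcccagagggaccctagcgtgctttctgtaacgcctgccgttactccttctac
This Fis1 promoter holds a CCAAT box, which 37.4% of 32851 mouse promoters hold, and those of Mief1 and of the other Fis1 start hold none. Neither these nor the promoters of the other members hold the composite site of Atf4 (TGATGNAAN on either strand, in 3.95% of promoters), the ER stress element ERSE (0.119%) or the cyclic AMP element TGACGTCA (1.79%). The Opa1 promoter holds the core GCATGCGC of the NRF1 site on both strands, overlapping, as 2.71% of promoters do on at least 1 strand. A match describes letters only.

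Mff and Mief2 did not pass the test in any comparison. Mff footprints were few, 2 to 21 per library, and its mRNA stood at 6.44, 8.57 and 7.19 RPKM in control and 6.89, 8.64 and 9.80 at CPA18 (log2 change 0.22, SE 0.396, adjusted p = 0.701 in edgeR). Mief2 mRNA stood at 3.57, 10.6 and 13.8 RPKM at CPA1 and 5.97, 24.2 and 17.6 at CPA18, higher in each experiment, and narrowly missed the threshold (0.72, SE 0.328, adjusted p = 0.0737 in edgeR). Mff changed by 0.57 in the same comparison (SE 0.393, adjusted p = 0.247 in edgeR). In all, 3 of the 7 members tested had an unadjusted p under 0.05 there, beside 3617 of 7794 genes.

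**Figure D4:**
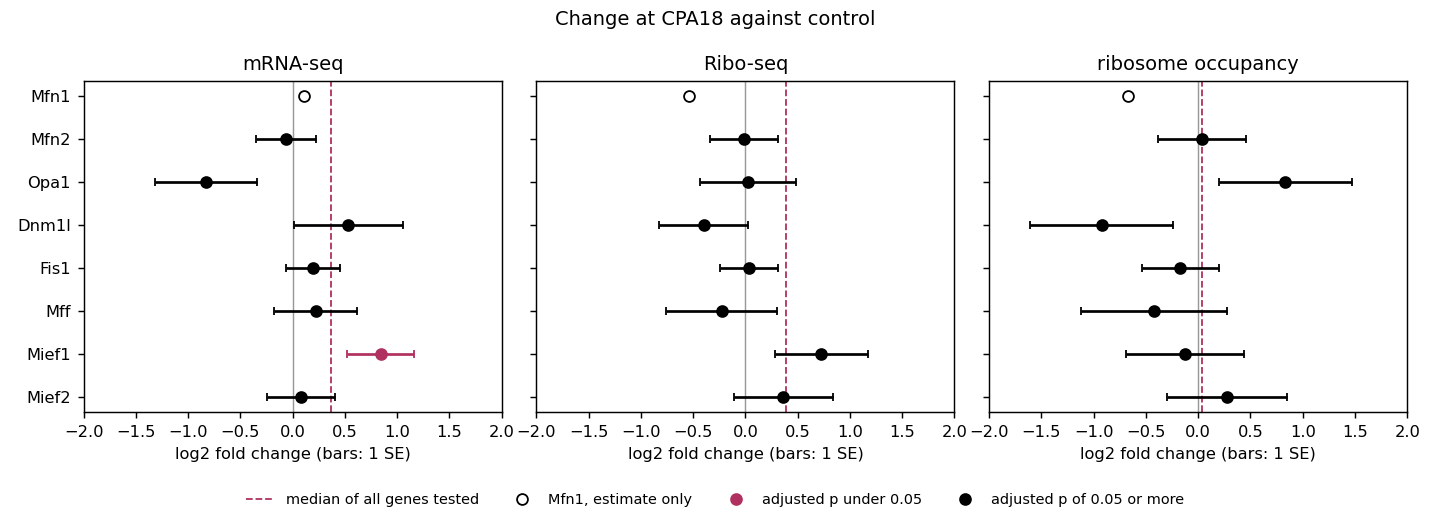
Log2 fold change at CPA18 against control in mRNA-seq, Ribo-seq and ribosome occupancy for the 8 members tested or described, from the edgeR fit over 7794 genes, with bars of 1 SE. The dashed line is the median of all genes, red marks an adjusted p under 0.05, and the open circle is the Mfn1 estimate, given without a test. Mief1 mRNA is the only red point. Opa1 and Dnm1l lie on opposite sides of 0 in mRNA-seq and in occupancy without passing the test. By experiment, Dnm1l occupancy changed by 0.13, 0.27 and -2.97.

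In the other comparisons none of the 7 members passed edgeR's quasi-likelihood test. Of all genes tested, 0.719% were called in mRNA-seq at CPA1 against control. In Ribo-seq, 6.51% were called at CPA1 against control, 30.9% at CPA18 against control and 22.5% at CPA18 against CPA1. In occupancy the shares were 0.0898%, 0.462% and 0.077%, that is 7, 36 and 6 genes. In Ribo-seq at CPA18 against control, where about 3 in 10 genes passed, the smallest adjusted p among the members was 0.210, and the members' median log2 change was 0.02 beside 0.39 for all genes. Across these 7 comparisons edgeR gave an unadjusted p under 0.05 for 1 member, Mief2 in occupancy at CPA1 against control (1.09, SE 0.541, adjusted p = 0.698). DESeq2 called 0 members in every comparison, with an unadjusted p under 0.05 for 1 member in mRNA-seq at CPA18 against control and 1 in Ribo-seq at CPA18 against CPA1. limma called 0 members too, with 2 in mRNA-seq at CPA18 against control, 2 against CPA1 and 1 in occupancy at CPA18 against CPA1.

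Wider groups of mitochondrial genes, none of them members, were described in the same fit. Of 28 regulators of fusion and fission, 23 were tested, and at CPA18 against control 5 rose and 1 fell in mRNA-seq and in Ribo-seq, where 25.9% of all genes rose and 7.69% fell in mRNA-seq and 24.6% and 6.35% did so in Ribo-seq. Their median log2 change was 0.15 and 0.18, below the 0.36 and 0.39 of all genes. With TMM scaling the balance over all genes turned, with 1048 higher and 1404 lower in mRNA-seq and 886 higher and 950 lower in Ribo-seq, and of the regulators 2 rose and 3 fell in mRNA-seq and 1 rose and 3 fell in Ribo-seq. Pgam5, a mitochondrial phosphatase that acts on Dnm1l, rose by 1.22 (SE 0.288) in mRNA-seq and 1.43 (SE 0.305) in Ribo-seq (adjusted p = 0.000487 and 4.78e-05 in edgeR). Mtfr1, which promotes fission, rose by 1.05 and 1.37 (adjusted p = 0.0213 and 0.00891 in edgeR). Marchf5, a ubiquitin ligase of the outer membrane that acts on fission proteins, rose by 0.94 in mRNA-seq (adjusted p = 0.00784 in edgeR), and Mul1, another such ligase, by 1.07 in Ribo-seq (adjusted p = 0.0304 in edgeR). Yme1l1, an inner membrane protease that processes Opa1, was the one that fell in mRNA-seq, where it changed by -1.21 (SE 0.379, adjusted p = 0.00874 in edgeR). Its mean of 4.27 RPKM was below the minimum for named genes, and it is named after its value was seen. Mtch2, an outer membrane protein, fell by 0.75 in Ribo-seq (adjusted p = 0.00587 in edgeR).

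All 15 genes of cristae organisation were tested, and 6 rose and 0 fell in mRNA-seq, 5 and 0 in Ribo-seq, at CPA18 against control. Of all genes tested, 25.9% rose and 7.69% fell in mRNA-seq, and 24.6% and 6.35% did so in Ribo-seq. With TMM scaling 3 of the 15 rose and 0 fell in each assay. Their median log2 change was 0.70 and 0.32, beside 0.36 and 0.39 for all genes, and with TMM scaling 0.24 and -0.04. Chchd10, a protein of the intermembrane space, rose by 1.54 in mRNA-seq and 2.00 in Ribo-seq (adjusted p = 3.99e-07 and 3.98e-26 in edgeR). Tmem11, an inner membrane protein that shapes mitochondria, rose by 1.98 and 1.28 (adjusted p = 1.91e-07 and 0.000747 in edgeR), Atad3a, an inner membrane ATPase, by 1.28 in mRNA-seq (adjusted p = 0.00637 in edgeR) and Chchd6, a subunit of the MICOS complex, by 1.31 in Ribo-seq (adjusted p = 0.00569 in edgeR).

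Of 17 genes listed for mitochondrial transport and mitophagy, 15 were tested, and 1 rose and 2 fell in mRNA-seq, 3 rose and 0 fell in Ribo-seq. The shares of all genes were again 25.9% and 7.69% in mRNA-seq and 24.6% and 6.35% in Ribo-seq. A place in this list does not mean that a gene acts only in mitochondria. Their median log2 change was 0.02 and 0.36, against the same all-gene medians. With TMM scaling 1 rose and 5 fell in mRNA-seq, and 1 rose and 1 fell in Ribo-seq. Pink1, the kinase that marks damaged mitochondria, rose by 1.28 (SE 0.316) in Ribo-seq (adjusted p = 0.000502 in edgeR), as did Ubxn4 by 0.88 and Tomm7 by 0.67 (adjusted p = 0.00795 and 0.0134 in edgeR). In mRNA-seq Vcp, an ATPase that extracts ubiquitinated proteins, rose by 0.97 (adjusted p = 0.00123 in edgeR), while the mitophagy receptor Bnip3 fell by 0.83 and Fundc2 fell by 0.72 (adjusted p = 0.0432 and 0.0432 in edgeR). Of 22 genes of import and mitochondrial mass, all tested, 6 rose and 0 fell in mRNA-seq and 2 rose and 1 fell in Ribo-seq, beside the same shares of all genes. Their median log2 change was 0.48 and 0.33. With TMM scaling 2 rose and 3 fell in mRNA-seq, and 1 rose and 6 fell in Ribo-seq, so the balance of rises and falls in this list turns with the scaling. Vdac3, a channel of the outer membrane, rose by 1.35 and 1.48 in the 2 assays (adjusted p = 1.27e-05 and 4.21e-11 in edgeR), and Tomm40 and Timm23, channels of protein import, by 1.10 and 0.79 in mRNA-seq (adjusted p = 0.00243 and 0.0110 in edgeR). Vdac1 rose by 0.60 and Atp5a1, a subunit of ATP synthase, fell by 0.45 in Ribo-seq (adjusted p = 0.00804 and 0.0182 in edgeR). In occupancy 0 genes of these 4 lists passed edgeR's test at CPA18 against control, with an unadjusted p under 0.05 for 1, 2, 1 and 3 genes, while limma called none and DESeq2 called 1, in transport and mitophagy. The rises of Vdac1 and Tomm7 in Ribo-seq were only 0.21 and 0.28 above the median gene. Under the 11 alternatives the calls of Vdac3 and Chchd10 held in 10 in mRNA-seq and in all 11 in Ribo-seq, and those of Pgam5 in 9 and 11. Fewer than 5 of 11 kept the mRNA-seq calls of Fundc2 and Timm23 (4 each) and the Ribo-seq calls of Mul1 and Vdac1 (3 each) and of Ubxn4 and Tomm7 (4 each), and 3 of 10 kept the mRNA-seq call of Mtfr1.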

How the data were processed

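mRNA-seq and Ribo-seq libraries of MIN6 cells were analysed from tables in which the authors deposited, for each RefSeq transcript, read counts, RPKM and the transcript length. Per the labels and the study's methods, reads that passed limits on quality and length were placed on mouse transcripts (GRCm38) by Bowtie2. The deposited counts are not normalized, and the deposited RPKM values are scaled to the library total and transcript length. How reads that fit several transcripts were assigned is not given in the sources used here.

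Of 30741 transcripts, 30232 were matched to RefSeq genes with their version, 478 without it and 31 not. Counts and RPKM were summed per gene. The 7794 genes with at least 1 read in each of 18 libraries were tested with edgeR 4.0.16 (R 4.3.3), by quasi-likelihood on counts, with library totals as size factors and experiments as blocks. A change in occupancy was the interaction between assay and treatment. Benjamini-Hochberg adjustment ran over all genes tested, with a threshold of 0.05. The labels give each experiment number as a batch, so same-numbered libraries are paired. Deviations from treatment means correlated between libraries of the same experiment with a mean r of 0.56 in mRNA-seq and 0.14 in Ribo-seq. Alternatives included DESeq2 1.42.0, TMM scaling and limma 3.58.1 on log2(RPKM + 0.5). A filter on each transcript, and the alternatives for list genes, were added after seeing the data. The fits were tested on simulated data. Figures used matplotlib 3.10.9. Sequences came from RefSeq, and 1 of them is not reported here.

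The members and lists were chosen with earlier results of these data known. Named are all members, up to 3 rises and 3 falls per list and assay at CPA18 against control by size of change with a mean of at least 5 RPKM in the assay, and the 5 genes most like Mfn1. From the ER stress and beta cell lists 1 gene each is given with its test. Intervals are 95% and cover counting error only.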

Additional observations from a re-analysis of the deposited data

How the results depend on the processing

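Depth limits the footprint values: Mfn1 at CPA18 rests on 1 to 14 footprints, and Mief1 on 1 to 20. Mfn1 was selected on its late fall in occupancy, so the values under other settings are a description and no support for it. The Mfn1 change in occupancy moved by less than 1 SD with TMM scaling and with library totals that omit Ins1 and Ins2. A filter on low counts cannot alter this change, since it is computed from Mfn1 values and library totals. Without 1 experiment it was -1.37 to -0.85 against control and -1.63 to -1.10 against CPA1. Where counts below moved, the cause was not tested.

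Of the 7 members tested, the 1 called in mRNA-seq at CPA18 against control became 0 under DESeq2, no filter on low counts, no block, limma, without the control libraries of experiment 2 and with library totals that omit Ins1 and Ins2, and 0 when any 1 experiment was left out. TMM scaling also called 1, but Opa1 in place of Mief1. The 2 called against CPA1 became 0 under TMM scaling, DESeq2, no filter, no block, limma, without the control libraries of experiment 2 and with Ins1 and Ins2 left out, and 0 to 1 without 1 experiment. With a filter on each transcript only 4 of the members were tested, and Mief1 was not among them. Of these 4, 0 were called in mRNA-seq at CPA18 against control and 1, Fis1, against CPA1. In Ribo-seq at CPA18 against CPA1, 0 became 1 under TMM scaling.

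The experiments pair the libraries, and without the replicate block fewer genes were called. In mRNA-seq the counts at CPA1 against control, CPA18 against control and CPA18 against CPA1 went from 56, 2617 and 2922 to 0, 154 and 138. In Ribo-seq at CPA1 against control 507 became 231, and in occupancy 7, 36 and 6 became 0, 3 and 0.

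Among all genes in mRNA-seq at CPA1 against control, 56 became 28 with TMM scaling, 35 with DESeq2, 163 with no filter, 14 with limma and 18 without the control libraries of experiment 2. Without the latter, 2617 became 1460 at CPA18 against control in mRNA-seq and 507 became 269 at CPA1 against control in Ribo-seq. DESeq2 called 1783 in mRNA-seq at CPA18 against CPA1 (888 higher, 895 lower). In Ribo-seq it called 1117 at CPA18 against control (505 higher, 612 lower, beside 1914 and 495 in edgeR) and 1006 against CPA1. limma called 4 in Ribo-seq at CPA1 and 1485 at CPA18 against control. In occupancy at CPA1 against control, 7 became 20 with TMM scaling, 37 with DESeq2, 35 with no filter, 0 with limma, 3 without the control libraries of experiment 2 and 13 with Ins1 and Ins2 left out. At CPA18 against control, 36 became 121 with no filter, 2 with limma and 16 without those control libraries. At CPA18 against CPA1, 6 became 2 with TMM scaling, 38 with DESeq2, 10 with no filter and 0 with limma. Leaving out 1 experiment gave, in the order CPA1 against control, CPA18 against control and CPA18 against CPA1, 17 to 166, 990 to 2485 and 1450 to 2711 genes in mRNA-seq, 236 to 309, 1473 to 1660 and 1132 to 1232 in Ribo-seq, and 4 to 73, 13 to 40 and 1 to 9 in occupancy.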
